A study of Rattus norvegicus with 50 samples.

Results

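Genes that build and run the motile cilium were followed in the lungs of rats that had inhaled titanium dioxide. The list held 37 genes, named for their known place in the cilium. The rule used no measured value, but the members were chosen with earlier results of these data known. Of these, 35 were found under their name on the array and all 35 were tested, among 25208 genes in all. Dnah7 and Spag17 were not found under their name and are not reported. The arrays carried older names for some members, namely Lrrc6 (now Dnaaf11) and Armc4 (now Odad2).

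Male F344 rats aged 12 weeks per the labels breathed, nose-only, filtered air (control) or a nano-aerosol of the P25 form of TiO2 at 10 mg/m3 (exposed), over 4 weeks, each with 5 days of 6 h. Rats were killed at the end of exposure (D0) and 3 (D3), 28 (D28), 90 (D90) and 180 days (D180) later, with 5 control and 5 exposed rats at each time and 50 arrays in all. RNA came from 1 whole accessory lobe per rat, in which ciliated cells of the bronchioles are a minority. In such bulk RNA, fewer ciliated cells and less RNA per ciliated cell cannot be told apart.

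Motile cilia cover the airway epithelium and sweep mucus, with the particles caught in it, towards the throat. Their core, the axoneme, is a ring of doublet microtubules around a central pair. Dynein arms slide the doublets past each other, radial spokes and the central apparatus time the stroke, tektin filaments stiffen the doublet wall, and intraflagellar transport carries the parts to the growing tip. In airway cells the transcription factors Foxj1, Rfx2 and Rfx3 switch this set on. RFX factors bind the X-box, a pair of inverted short sites, and GTTGCC is a common form of such a site.

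The probes of 4 of the 6 members that passed the adjusted p at D0 are shown as examples, because each signal stands for this stretch of the transcript only, and those of Ropn1l and Tppp3 are not printed. They are printed 5′ to 3′ in lower case, with no part marked, and their places are those of the array's own annotation on the rat build rn4. The Tekt2 probe lies at chr5:145691429-145691639 on the minus strand, where 60 bases span 211 positions of the genome, so that it crosses an intron and reads spliced RNA. The Dnai1 probe lies at chr5:59054173-59054232, the Spag16 probe at chr9:69738009-69738068 and the Capsl probe at chr2:59062980-59063039, all on the plus strand.
Tekt2 probe: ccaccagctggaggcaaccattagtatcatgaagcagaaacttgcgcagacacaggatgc
Dnai1 probe: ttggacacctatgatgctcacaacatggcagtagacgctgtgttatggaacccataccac
Spag16 probe: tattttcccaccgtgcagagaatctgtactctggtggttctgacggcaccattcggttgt
Capsl probe: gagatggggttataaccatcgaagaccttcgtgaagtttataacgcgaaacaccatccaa

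Promoters were taken from RefSeq on the build GRCr8, from 250 bases before to 50 bases after the start of transcription, and 28 of the 37 members had one. The short site GTTGCC, searched on both strands, lay in the window of 14 of these 28 members (50.0%), against 13.09% of 27457 genes in all. A strict form of the full X-box, GTTNCC followed after at most 3 bases by GGNAAC, lay in 1 member, Ropn1l, and in 0.929% of all genes. Looser forms of the pair were not searched, so this count does not give the number of members with an X-box. The forkhead motif TGTTTAC lay in 1 member, Dnali1, and in 4.126% of all genes. A match is a description of these letters and not a shown binding site. Of the 7 members that passed the adjusted p after exposure in the fit without a slide term, 5 had a promoter. Those of Tekt2 (chr5:143907675-143907974), Ropn1l (chr2:84164167-84164466) and Ccdc113 (chr19:9522908-9523207), on the minus strand, and of Capsl (chr2:60121912-60122211), on the plus strand, held GTTGCC and are printed to show where it lies, and that of Dnai1 held none of the 3 motifs. Capitals mark GTTGCC, or GGCAAC where it lies on the other strand, and in Ropn1l the strict pair. From the start of transcription GTTGCC or its reverse complement lay at -29 to -24 and at 10 to 15 in Tekt2, at -201 to -196 in Ropn1l, at -191 to -186 in Capsl and at -6 to -1 in Ccdc113.
Tekt2 promoter: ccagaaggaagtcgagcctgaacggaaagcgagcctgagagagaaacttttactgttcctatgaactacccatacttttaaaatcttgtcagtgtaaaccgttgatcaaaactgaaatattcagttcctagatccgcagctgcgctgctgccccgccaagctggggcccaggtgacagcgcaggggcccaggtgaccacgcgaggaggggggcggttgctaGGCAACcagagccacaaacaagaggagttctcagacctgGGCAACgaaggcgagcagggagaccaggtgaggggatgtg
Ropn1l promoter: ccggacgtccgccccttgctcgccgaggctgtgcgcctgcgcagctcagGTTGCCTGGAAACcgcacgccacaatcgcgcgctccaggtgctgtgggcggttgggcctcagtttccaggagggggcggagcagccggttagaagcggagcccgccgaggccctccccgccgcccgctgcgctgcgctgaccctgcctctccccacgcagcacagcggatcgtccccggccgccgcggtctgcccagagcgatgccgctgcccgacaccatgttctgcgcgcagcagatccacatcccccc
Capsl promoter: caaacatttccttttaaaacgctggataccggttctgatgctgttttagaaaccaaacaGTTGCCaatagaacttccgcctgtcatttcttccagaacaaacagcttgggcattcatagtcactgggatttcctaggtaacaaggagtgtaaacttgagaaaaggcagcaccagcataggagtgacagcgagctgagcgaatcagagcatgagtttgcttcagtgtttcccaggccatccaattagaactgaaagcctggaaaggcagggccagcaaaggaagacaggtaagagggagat
Ccdc113 promoter: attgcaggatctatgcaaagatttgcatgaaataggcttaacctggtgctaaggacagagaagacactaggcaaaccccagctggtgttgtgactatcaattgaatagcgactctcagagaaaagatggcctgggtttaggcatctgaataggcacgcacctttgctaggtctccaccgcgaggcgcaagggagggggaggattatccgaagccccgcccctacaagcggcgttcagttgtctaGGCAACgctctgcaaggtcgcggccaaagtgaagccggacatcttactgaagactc

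Signals are given as log2 of the scanner's processed signal after quantile normalization, so that a difference of 1 is a doubling, and a change is the mean of exposed rats minus that of control rats of the same day. A gene was called differentially expressed (DEG) at a Benjamini-Hochberg adjusted p under 0.05 in limma, over all genes tested, together with a change of at least 1.5-fold. All 35 members were well above background on all 50 arrays. The processed signal of an array had a median between 198 and 473, and 68.7% to 84.5% of gene spots were well above background. Arrays of 1 group correlated at 0.974 to 0.996. The arrays came from 7 slides. Groups of D0, D3 and D28 lay on slides 1 to 4 and those of D90 and D180 on slides 5 to 7, except replicate 1 of the exposed rats at D3, which lay on slide 5.

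All members but Tekt2 had a mean within 1.5-fold of their control at every time. At D0, 1 of 35 members, Tekt2, was a DEG, where 4.27% of all genes were DEGs. At D3 it was again Tekt2 alone, against 3.48% of all genes. No member was a DEG later, while 1.33% of all genes were at D28, 0.381% at D90 and, at the last time, 0.325%. At an unadjusted p under 0.05 the members numbered 8 at D0 (23.4% of all genes), 7 at D3 (21.8%) and 10 at D28 (16.6%), followed by 4 at D90 (7.11%; Tppp3, Tekt2, Dnah11 and Dnai2) and 2 at D180 (8.04%; Foxj1 and Tppp3).

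The median change over the 35 members was -0.013, -0.016, -0.13, 0.073 and -0.019 at the 5 times in turn, where the median over all genes lay between -0.010 and 0.0037. Members above their control level numbered 15, 15, 6, 29 and 11 in the same order. For 27, 26, 32, 34 and 33 members the 95% confidence interval of the change lay wholly within 1.5-fold of control in either direction. With the slide as a block the medians were -0.020, -0.022, -0.10, 0.073 and -0.030. At D28 the median was -0.075 without replicate 1 of the control rats and -0.074 without replicate 4, and -0.166 to -0.095 with any other array left out. Without replicate 3 of the exposed rats at D90 the median at D90 was -0.012. The direction of the set at D90 thus rested on 1 rat.

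**Figure D1:**
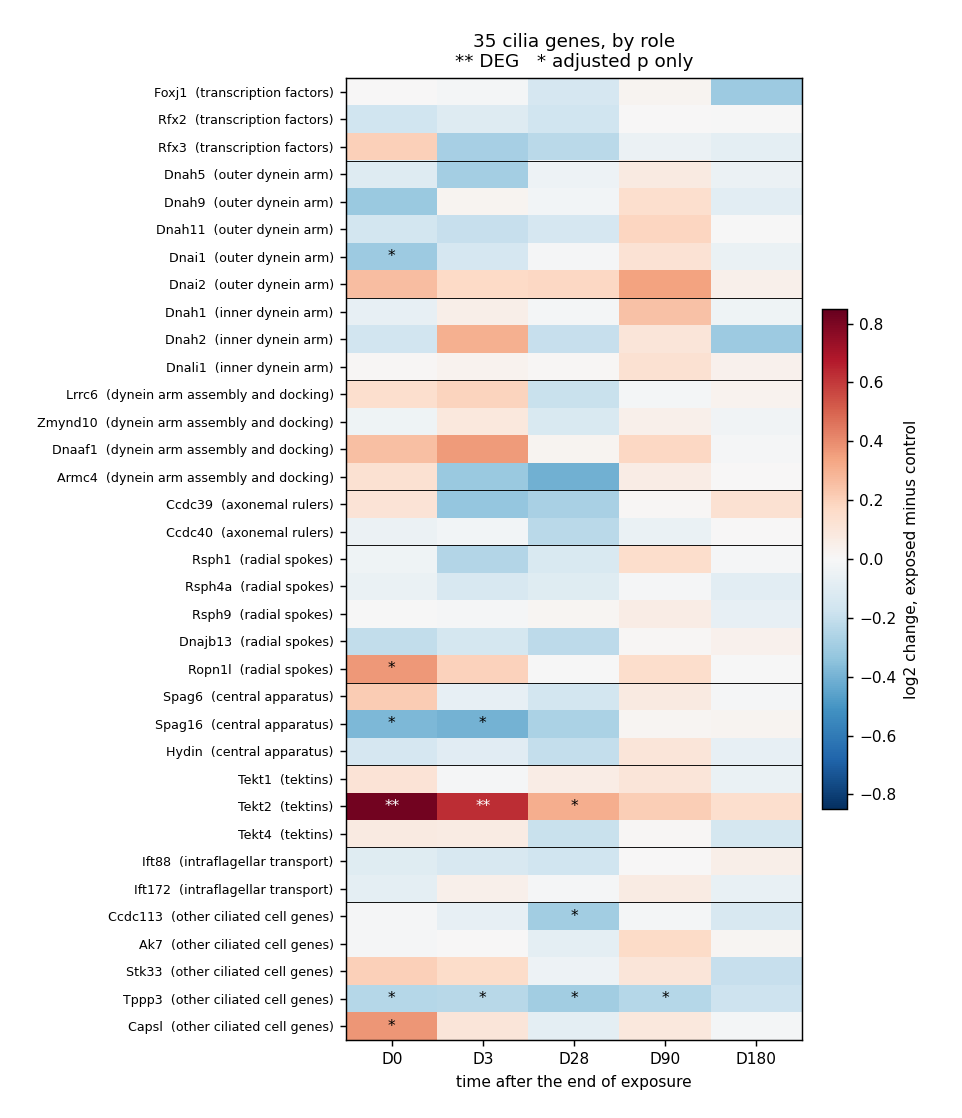
Colour gives the log2 change, exposed minus control, of each of the 35 members (lines, ordered by role) at each time (columns, 5 rats per group). The Tekt2 line stands out at D0 (0.82) and D3 (0.63), the only fields marked as DEGs, and single stars mark fields past the adjusted p but under 1.5-fold.

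Tekt2 encodes a tektin of the doublet wall. At D0 its log2 signals were 11.36, 11.21, 11.11, 11.09 and 11.31 in control rats and 11.94, 11.99, 12.17, 12.07 and 12.01 in exposed rats. The lowest exposed rat was thus above the highest control rat. Tekt2 was over-expressed by 0.82 on the log2 scale (SE 0.07, 1.77-fold, adjusted p = 7.12e-12 in limma). The signal of Tekt2 came from 1 probe with 1 spot per array, and the array held no second probe of it under this name. Within the 4 slides that held rats of both groups at D0 the change ran from 0.61 to 0.96.

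At D3 the signals of Tekt2 were 11.93, 11.80, 11.82, 11.66 and 11.55 in control rats and 12.43, 12.45, 12.43, 12.24 and 12.35 in exposed rats. Again no exposed rat reached down to a control rat. Tekt2 was over-expressed by 0.63 (1.55-fold, adjusted p = 1.36e-08 in limma), and by 0.31 to 0.78 within single slides. Without replicate 5 of the control rats at D3 the change was 0.58, under the fold limit, with an adjusted p of 2.37e-07 in limma.

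At D28 Tekt2 was at 11.76, 11.81, 11.65, 11.80 and 11.88 in control rats and 12.07, 12.24, 12.04, 11.95 and 12.13 in exposed rats. The groups still did not overlap, and the difference of 0.31 passed the adjusted p (0.00741 in limma) but not the fold limit. At D90 control rats had 11.68, 11.69, 11.66, 11.78 and 11.93 and exposed rats 11.85, 12.06, 12.09, 11.76 and 12.05. At D180 control rats had 11.64, 11.75, 11.69, 11.80 and 11.54 and exposed rats 11.81, 11.94, 11.73, 11.82 and 11.82. The groups overlapped at both late times, with differences of 0.21 (adjusted p = 0.218) and 0.14 (adjusted p = 0.664) in limma.

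The change of Tekt2 itself differed between times. The change at D90 less that at D0 was -0.61 (adjusted p = 5.99e-05 in limma) and the change at D180 less that at D0 was -0.68 (adjusted p = 1.03e-05), both past 1.5-fold, where 2.17% and 2.24% of all genes passed the same test. At D28 the difference from D0 was -0.51 (adjusted p = 0.00125), under the fold limit (2.6% of all genes passed the adjusted p and 1.6% both limits), and between D3 and D0 no member passed, where 0.678% of all genes did. No other member passed these tests in the fit without a slide term. With the slide as a block and no fold limit, 6 members passed the difference of D90 from D0 (13.3% of all genes). In that fit 4 passed for D180 (13.5%), 1 for D28 (8.42%) and 0 for D3 (3.83%). Of 20 fits with 1 array left out, 6 put the D90 difference under the fold limit, with values of -0.64 to -0.56 over all 20, and none did so for D180.

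Control rats also differed between times. Mean Tekt2 signal in control rats was 11.22 ± 0.12 (SD, n = 5) at D0, and then 11.75 ± 0.15, 11.78 ± 0.09, 11.75 ± 0.11 and 11.68 ± 0.10 from D3 to D180 in turn. Control rats at D0 had the lowest mean of the 10 groups, under those of D3 by 0.54 (adjusted p = 7.46e-07 in limma), of D28 by 0.56 (adjusted p = 2.49e-07) and of D180 by 0.47 (adjusted p = 9.68e-06), none of them past 1.5-fold. D0 and D180 lay on different slides, and with the slide as a block that last difference was 0.45 and did not pass (adjusted p = 0.0854 in limma). In exposed rats the means were 12.04 ± 0.09, 12.38 ± 0.09, 12.09 ± 0.11, 11.96 ± 0.15 and 11.82 ± 0.08 at the same times.

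Output genes of the circadian clock, 7 of 9 listed ones tested, moved between groups as well. Their mean level, with each gene's mean over 50 arrays removed, ran from 1.03 to 1.41 in control rats and from -0.48 to 0.20 in exposed rats at D0. Of the 7, 6 were under-expressed at D0 and at D3, where 4.27% and 3.48% of all genes were DEGs. At D28 and D90, 6 were over-expressed, and 5 at D180, where 1.33%, 0.381% and 0.325% of all genes were DEGs in turn. The mean of Tekt2 was higher in exposed rats at all 5 times. The part of clock phase in the Tekt2 result was not tested.

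Around Tekt2 on chromosome 5, the next gene before it, Adprs (Adprhl2 on the array), was higher by 0.36 at D0 (adjusted p = 0.0333 in limma, under 1.5-fold) and by 0.33 at D3 (adjusted p = 0.0671). Col8a2 and Ago3, 2 genes before and 2 genes after, had changes at D0 of 0.24 and -0.35, neither past the adjusted p (0.775 and 0.353). These neighbours were chosen after the values of Tekt2 were seen.

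**Figure D2:**
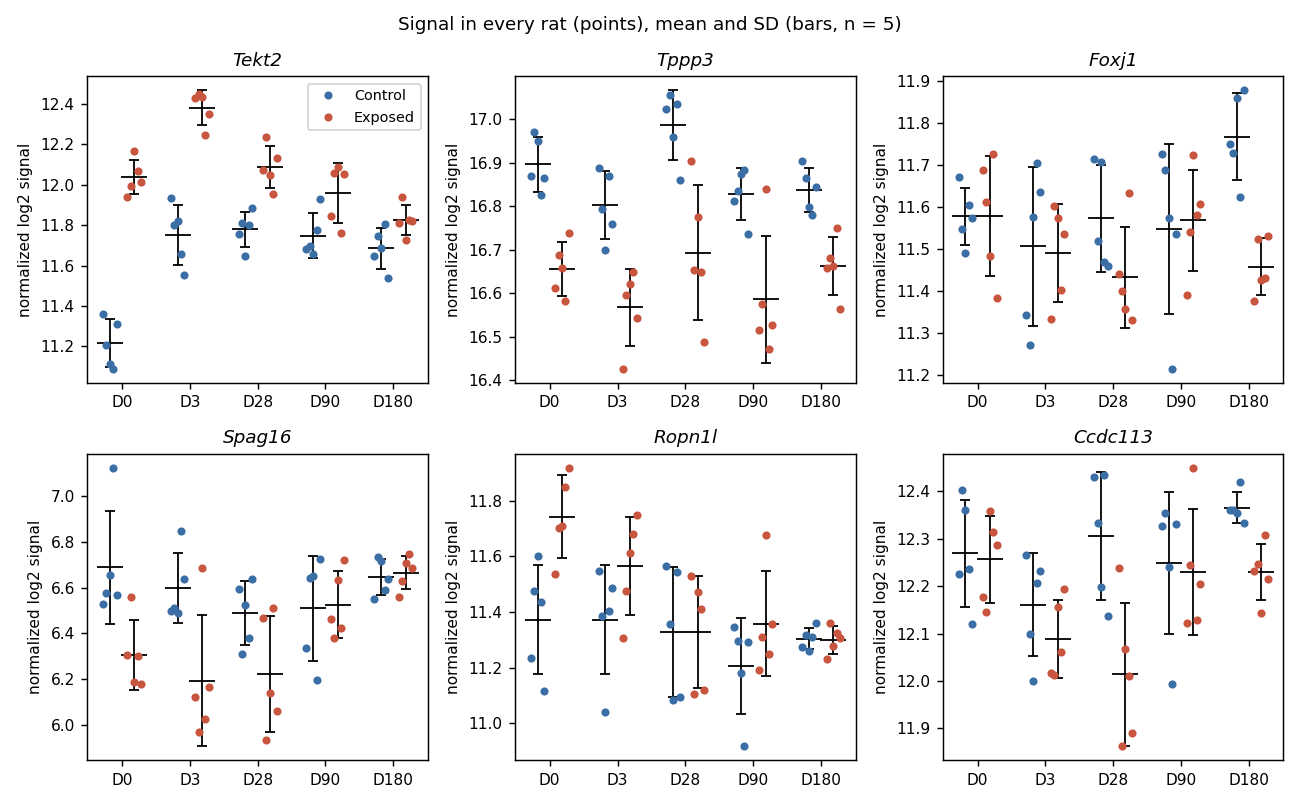
Points are the normalized log2 signals of single rats and bars the mean and SD of 5 rats, for 6 members at each time. Exposed rats lay above all control rats for Tekt2 at D0, D3 and D28 and below all control rats for Tppp3 at D0, D3 and D180 and for Foxj1 and Ccdc113 at D180, while in the panels of Spag16 and Ropn1l the groups overlap at every time.

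Among the other tektins, Tekt1 had changes of 0.12, -0.01, 0.06, 0.11 and -0.06 and Tekt4 of 0.08, 0.07, -0.19, 0.01 and -0.15 at D0, D3, D28, D90 and D180. Neither passed the adjusted p at any time. The large change among tektins was thus that of Tekt2.

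Without the fold limit, 6 members passed the adjusted p at D0, where 13.5% of all genes did, 3 at D3 (10.4% of all genes) and 3 at D28 (3.88%), with 1 at D90 (1.05%) and none (0) by D180 (0.893%). The members at D0 were Tekt2, Ropn1l and Capsl on the higher side and Tppp3, Spag16 and Dnai1 on the lower side. At D3 they were Tekt2, Spag16 and Tppp3, at D28 Tekt2, Tppp3 and Ccdc113, and at D90 Tppp3. Capsl at D0, Dnai1 at D0 and Spag16 at D0 are given in full because these counts were small, and were picked after their values were seen.

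Tppp3, a tubulin-binding protein strongly expressed in ciliated cells, had a lower mean in exposed rats at all 5 times. At D0 its signals were 16.87, 16.97, 16.95, 16.83 and 16.86 in control rats and 16.61, 16.69, 16.66, 16.58 and 16.74 in exposed rats. At D3 they were 16.89, 16.79, 16.70, 16.87 and 16.76 against 16.43, 16.60, 16.62, 16.65 and 16.54. No exposed rat overlapped a control rat at either time, with differences of -0.24 (adjusted p = 0.00549) and -0.23 (adjusted p = 0.00854) in limma.

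At D28 Tppp3 stood at 17.02, 17.06, 16.96, 17.04 and 16.86 in control rats and at 16.90, 16.65, 16.78, 16.65 and 16.49 in exposed rats. At D90 it stood at 16.81, 16.84, 16.87, 16.88 and 16.74 against 16.52, 16.58, 16.84, 16.47 and 16.53. In each of these comparisons 1 exposed rat lay among the controls, with differences of -0.29 (adjusted p = 0.00259) and -0.24 (adjusted p = 0.0395) in limma. At D180 control rats had 16.90, 16.86, 16.80, 16.78 and 16.84 and exposed rats 16.66, 16.68, 16.66, 16.75 and 16.56, without overlap, but the difference of -0.17 did not pass (adjusted p = 0.254).

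Within single slides the mean of Tppp3 was lower in exposed rats on every slide that held both groups, between -0.31 and -0.10 over the 5 times. With the slide as a block it passed the adjusted p at all 5 times, D180 included (-0.20, adjusted p = 0.00845 in limma). With arrays scaled to their 75th percentile in place of quantile normalization it did not pass at D0 (-0.17, adjusted p = 0.183) or D90 (-0.28, adjusted p = 0.0775), and when each time was fitted on its own 10 arrays it passed at none (adjusted p from 0.0793 to 0.240).

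Spag16, a protein of the central apparatus, was lower in exposed rats early. Its signals at D0 were 6.53, 6.58, 6.65, 7.13 and 6.57 in control rats and 6.31, 6.56, 6.19, 6.30 and 6.18 in exposed rats, a difference of -0.38 (adjusted p = 0.0254 in limma). At D3 they were 6.50, 6.51, 6.49, 6.85 and 6.64 against 6.12, 5.97, 6.69, 6.03 and 6.16, a difference of -0.40 (adjusted p = 0.0215). At each time 1 exposed rat lay among the controls, and within slides the difference ran from -0.70 to -0.24 at D0 and from -0.52 to -0.16 at D3. The call at D3 was lost in 5 of 10 fits with 1 array left out, at an adjusted p of at most 0.0854, and with the study's own normalized values (-0.25, adjusted p = 0.0556).

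Ropn1l, a radial spoke protein, was higher at D0. Control rats had 11.23, 11.48, 11.60, 11.44 and 11.12 and exposed rats 11.54, 11.70, 11.71, 11.85 and 11.92, a difference of 0.37 (adjusted p = 0.0161 in limma). The highest control rat lay above the lowest exposed rat. Within slides the difference was 0.23 to 0.36, and leaving out control replicate 5 it was 0.31 (adjusted p = 0.0693). At the later times Ropn1l had changes of 0.19, 0.00, 0.15 and -0.01, none past the adjusted p, but with the slide as a block it passed at D3 too (0.28, adjusted p = 0.00726 in limma).

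Capsl, a calcium-binding protein of ciliated cells, was at 9.75, 9.88, 10.02, 9.79 and 9.58 in control rats at D0 and at 10.20, 10.03, 10.22, 10.09 and 10.36 in exposed rats, with 0.38 between the means (adjusted p = 0.0302 in limma). Dnai1, an intermediate chain of the outer dynein arm, was at 9.33, 9.40, 9.29, 9.14 and 9.28 in control rats and at 9.0, 8.93, 8.99, 8.87 and 9.11 in exposed rats, with -0.31 between the means (adjusted p = 0.0369). For both genes the groups did not overlap, in opposite directions. Groups did not overlap for 4, 4, 2, 1 and 4 members at D0, D3, D28, D90 and D180, against 8.52%, 6.77%, 3.8%, 3.82% and 4.22% of all genes. Beside those already named they were Ift88 and Dnah2 at D3, Ift88 at D28, Dnah11 at D90 and Foxj1, Tppp3, Ccdc113 and Tekt4 at D180, a list made after the values were seen.

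Ccdc113, a coiled-coil protein of the cilium base and axoneme, passed the adjusted p at D28 alone, on the lower side. Control rats had 12.43, 12.33, 12.20, 12.43 and 12.14 and exposed rats 12.24, 11.86, 12.07, 12.01 and 11.89, a difference of -0.29 (adjusted p = 0.0144 in limma). Within slides it was -0.26 to -0.19. The groups overlapped by 1 exposed rat, and 4 of 10 fits with 1 array left out put the adjusted p above 0.05, at most at 0.0638.

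Foxj1, the transcription factor that turns on motile cilia genes, did not pass the test at any time. At D0 its signals were 11.67, 11.55, 11.49, 11.61 and 11.57 in control rats and 11.69, 11.61, 11.48, 11.73 and 11.38 in exposed rats. At D3 they were 11.34, 11.27, 11.58, 11.70 and 11.64 against 11.33, 11.60, 11.57, 11.40 and 11.54. The groups covered much the same range, with differences of 0.0014 and -0.02.

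At D28 control rats had 11.72, 11.52, 11.71, 11.47 and 11.46 and exposed rats 11.44, 11.40, 11.36, 11.63 and 11.33 for Foxj1. At D90 they had 11.73, 11.69, 11.57, 11.21 and 11.54 and 11.39, 11.54, 11.72, 11.58 and 11.61. The differences were -0.14 (adjusted p = 0.426 in limma) and 0.02, with overlapping groups. At D180 control rats had 11.75, 11.73, 11.86, 11.62 and 11.88 and exposed rats 11.38, 11.52, 11.43, 11.43 and 11.53.

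Every exposed rat at D180 was thus below every control rat for Foxj1. The difference of -0.31 had an adjusted p of 0.0718 in limma, and -0.29 with 0.0203 with the slide as a block, where it lay between -0.40 and -0.21 on the 3 slides. In that fit the difference stayed under 1.5-fold. The other 2 factors of the set, Rfx2 and Rfx3, had changes between -0.28 and 0.21 over the 5 times, and neither passed the adjusted p.

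**Figure D3:**
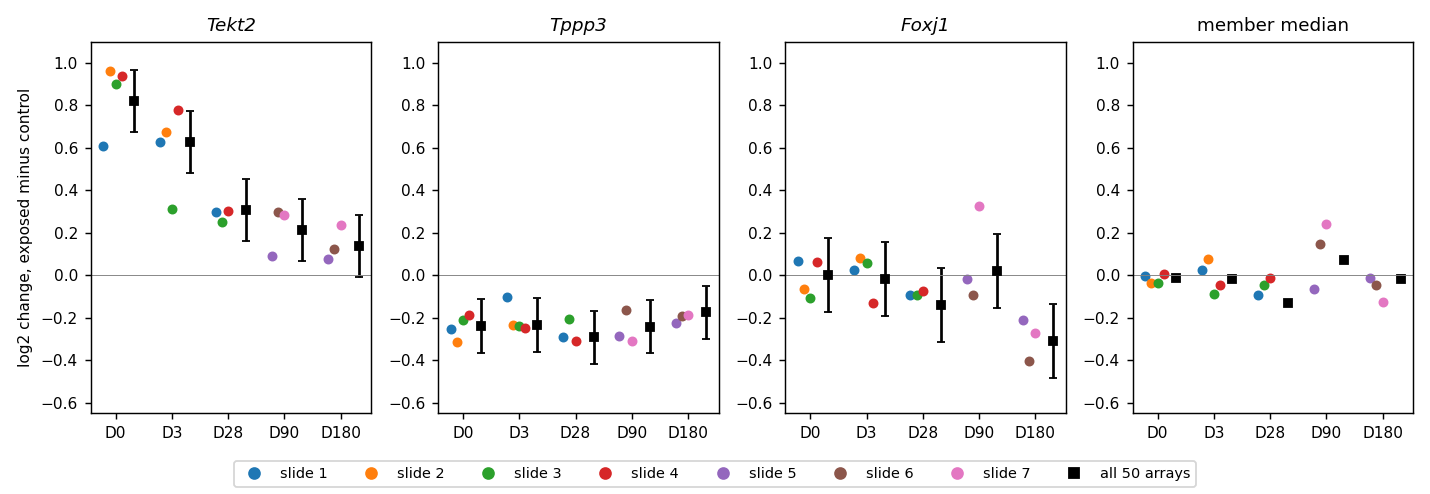
Coloured points are log2 changes, exposed minus control, within single slides that held both groups, and black squares the fit over all 50 arrays, with 95% confidence intervals for the 3 genes. Tekt2 was above 0 and Tppp3 below 0 on every slide at all 5 times, Foxj1 lay on both sides of 0 except at D28 and D180, and the median over the 35 members stayed between -0.13 and 0.24.

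The dynein arms, the motors of the beat, showed small changes. The 5 outer arm members had median changes of -0.15, -0.14, -0.03, 0.15 and -0.05 at the 5 times. At D90 all 5 were above control, and Dnah11, a heavy chain, had 11.86, 11.91, 11.85, 11.83 and 11.89 in control rats and 11.95, 12.14, 12.30, 11.95 and 11.92 in exposed rats. The Dnah11 groups did not overlap, yet the difference of 0.18 was far from the threshold (adjusted p = 0.600 in limma). Without replicate 3 of the exposed rats at D90 it was 0.12. The inner arm members Dnah1, Dnah2 and Dnali1 lay between -0.31 and 0.30, with none past the adjusted p.

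Of the assembly and docking factors, which build the arms in the cytoplasm or fix them to the doublets, Dnaaf1 had the highest change (0.36 at D3, adjusted p = 0.136 in limma) and Armc4 the lowest (-0.41 at D28, adjusted p = 0.218). A second probe of Armc4 had 0.03 at D28, and -0.15 at D0 where the probe used had 0.13. Second probes also differed in sign for Spag6 at D0 (-0.04 against 0.22), Lrrc6 at D28 (0.45 against -0.19) and Stk33 at D28 (0.42 against -0.04), and none of the second probes passed the adjusted p. Lrrc6 and Zmynd10 stayed between -0.19 and 0.19. The axonemal rulers Ccdc39 and Ccdc40, which set the repeat along the doublet, lay between -0.33 and 0.13.

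Radial spoke members other than Ropn1l (Rsph1, Rsph4a, Rsph9 and Dnajb13) stayed between -0.25 and 0.15. In the central apparatus, Spag6 had changes of 0.22 to -0.15 and Hydin of -0.20 to 0.11. The Spag6 probe lies where the rat genome places a near-identical copy, Spag6l, so its signal is uncertain. Ift88 and Ift172 of intraflagellar transport lay between -0.17 and 0.07, and Ak7 and Stk33 between -0.20 and 0.20. None of these genes passed the adjusted p at any time in the fit without a slide term.

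With the slide as a block the SE of a member at D0 had a median of 0.0736 against 0.109 without it, and more members passed the adjusted p with no fold limit. They numbered 12 at D0, where 28.1% of all genes passed, 6 at D3 (19.6%) and 5 at D28 (12.4%), with 2 each at D90 (4.35%) and D180 (4.11%). At D0 Dnai2 (0.31) and Spag6 (0.19) joined Tekt2, Ropn1l and Capsl on the higher side, and Dnah9 (-0.33), Dnah11 (-0.19), Dnajb13 (-0.23) and Hydin (-0.19) joined Spag16, Tppp3 and Dnai1 on the lower side. Dnai2 (0.34), Dnaaf1 (0.36) and Ropn1l (0.28) joined Tekt2, Spag16 and Tppp3 at D3. Newly past the adjusted p were also Ccdc40 (-0.21) and Tekt4 (-0.21) at D28, Dnai2 (0.34) again at D90 and Foxj1 and Tppp3 at D180. In this fit too, Tekt2 alone was a DEG, at D0 (5.57% of all genes) and D3 (4.01%), and no member was at D28 (1.99%), D90 (0.603%) or D180 (0.555%).

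Control rats of different times gave the background of the members without particles. Between D3 and D0, Tekt2 was higher and Zmynd10 (-0.29) and Ift88 (-0.20) lower at D3 past the adjusted p (7.35% of all genes), with no member past 1.5-fold (2.32%). The median over members was -0.16, and 15 members had an unadjusted p under 0.05 (17.8% of all genes). Between D28 and D0, Tekt2 and Rsph4a (-0.25) passed (7.07%), under 1.5-fold (2.48%). Between D180 and D0, Ccdc39 was under-expressed at D180 (-0.63, adjusted p = 0.0140 in limma, 5.52% of all genes DEGs), but it was not a DEG with the slide as a block or with 75th percentile scaling, and those groups lay on different slides. No member passed between D28 and D3 (0.639% of all genes DEGs, 1.49% with no fold limit) or D180 and D90 (0.0198% and 0.0278%), with 2 members (Zmynd10 and Tppp3, against 8.29% of all genes) and 4 members (Foxj1, Dnai1, Rsph4a and Rsph9, against 4.82%) at an unadjusted p under 0.05. With the slide as a block and no fold limit, 11 members passed between D3 and D0, 10 of them lower at D3 (18.9% of all genes), 7 between D28 and D0, 6 of them lower at D28 (18%), 1, Tppp3 (0.17), between D28 and D3 (5.21%), and none (0) between D180 and D0 (2.3%).

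Rats also differed in the level of the whole set. The member level of a rat is the mean over the 35 members of the signal less the gene's mean over all 50 arrays. It was highest in replicate 3 of the exposed rats at D90, at 0.35, where all 35 members were above the mean of the other 4 rats of the group. In the same rat the mean level of ciliated epithelium markers was 0.43, of secretory markers 0.45 and of basal cell markers 0.58. It was also 0.35 for mesothelium and 0.42 for cardiac muscle markers, but -0.18 for markers of airway smooth muscle and cartilage. The part of the make-up of the lobe was not tested. Krt5 and Ngfr among the basal markers were not well above background on all 50 arrays. Replicate 1 of the exposed rats at D3 was the lowest, at -0.24, and replicate 4 of the control rats at D90 followed, at -0.22. The former was the only array of D3 on slide 5, so that its rat and its slide cannot be told apart.

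**Figure D4:**
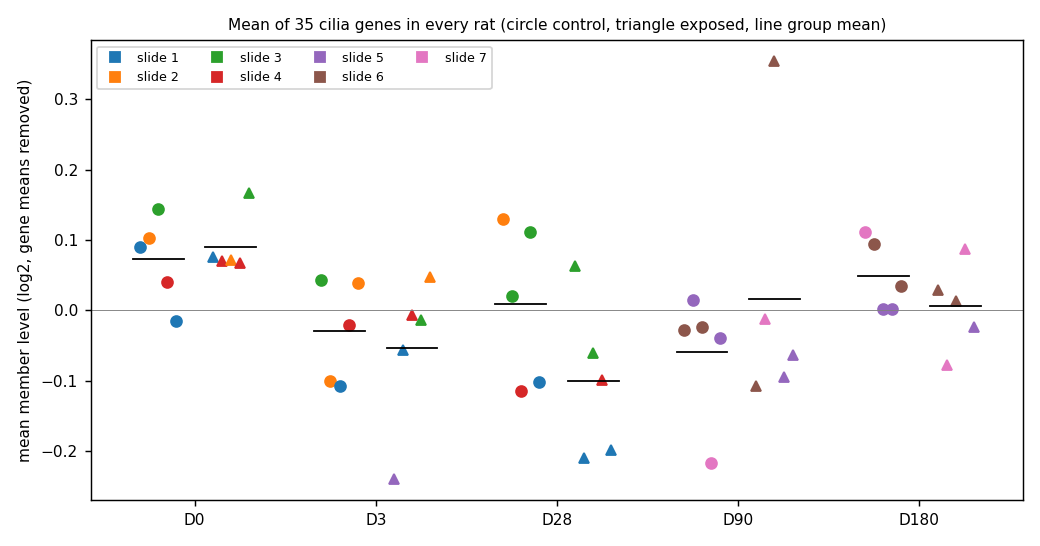
Each point is the mean level of the 35 members in 1 rat, in log2 units with gene means removed, coloured by slide, with control rats as circles, exposed rats as triangles and a line at each group mean. Replicate 3 of the exposed rats at D90 (0.35) lies far above the other rats, and groups overlap at every time.

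Slides held 21.1% of the variance of the member level over the 50 rats, and the 10 groups held 29.5%. Early and late times lay on largely different slides, so the share of slides also holds differences between times. Exposure, as exposed against control rats with all times pooled, held 0.404% of what was left within slides. Opposite shifts at different times can cancel in that share. For single members the share held by slides ran from 2.41% to 86.2% with a median of 41.6%, against 41.1% for all genes. It was highest for Ccdc39 (86.2%), Spag6 (81.7%) and Tekt1 (78.9%).

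Members varied together from rat to rat. With group means removed, the correlation of a member with the mean of the other 34 over 50 arrays had a median of 0.62, was at least 0.5 for 23 of 35 members and under 0.2 for 9, where genes that are no member had a median of 0.034 with the member mean. These correlations are a description, since arrays share slides and each array holds the RNA of 1 lobe for all members. With slide means removed as well, 28 members reached 0.5 and 1, Tekt2, stayed under 0.2. Without the 2 rats farthest from the median level, 19 members reached 0.5.

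Ccdc40 followed the set most closely (r = 0.91), with Capsl (0.84), Ccdc113 (0.80) and Ropn1l (0.79) among the closest. Tekt1 went from -0.21 to 0.76, Dnah9 from -0.15 to 0.70 and Ift172 from -0.08 to 0.65 once slide means were removed. Tekt2, the member with the largest change after exposure at D0 and D3, had an r of -0.06 before and 0.15 after. Tppp3 had 0.73 and 0.64.

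The 10 genes outside the list with the most similar pattern were Mns1 (r = 0.88), RGD1308544, LOC102554838, Cdhr4 (0.86), RGD1564308, Pifo (0.85), DV718677, Tspan1 (0.84), P2rx6 and Tmem212 (0.83). Mns1 encodes a protein inside the doublets of motile cilia, and Cdhr4, Pifo and Tmem212 are on the list of ciliated epithelium markers. Mns1 had changes of -0.03, -0.02, -0.24, -0.05 and -0.03 after exposure, at D0 to D180 in turn.

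**Figure D5:**
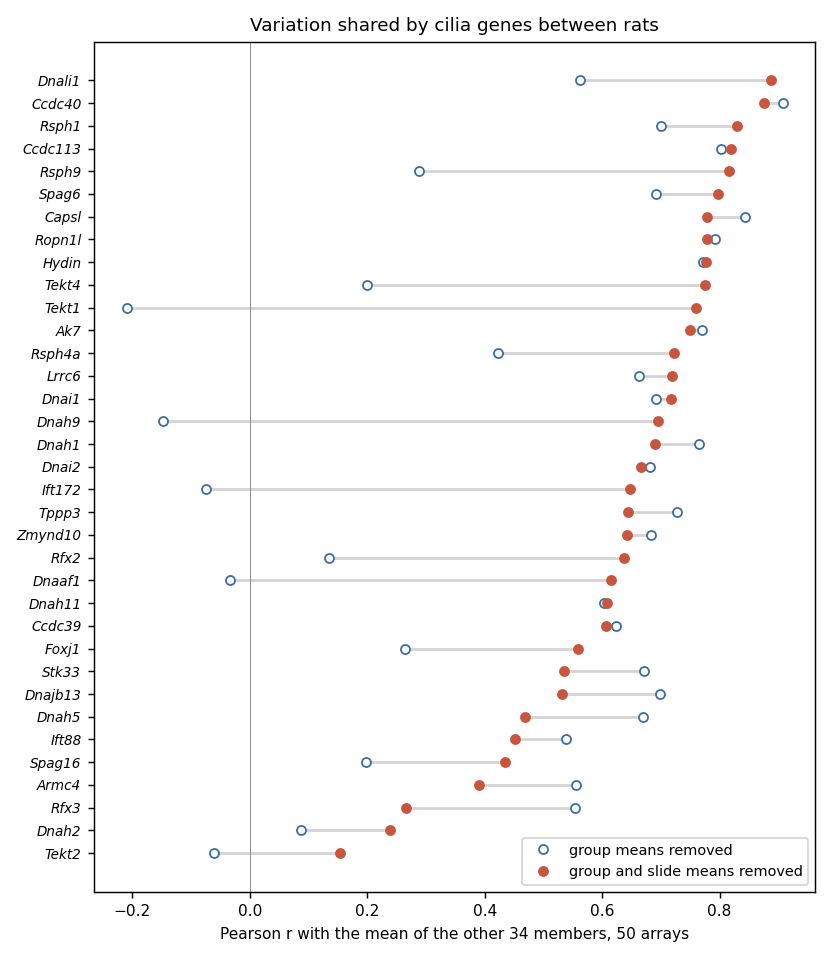
Points give Pearson's r of each member with the mean of the other 34 members over 50 arrays, with group means removed (open) or group and slide means removed (filled). Most filled points lie above 0.5, and Tekt2 is the lowest of them at 0.15.

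Genes of neighbouring steps were read from lists of other cilia genes. Of 20 further dynein arm and assembly genes tested and of 21 genes of spokes, central apparatus and doublets, none was a DEG in exposed against control rats at any time. The multiciliation program, by which a cell makes its many basal bodies, had 3 of 9 tested genes over-expressed at D0 and 1 at D3. Its median change was 0.32 at D0 and 0.027 at D3.

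Ccno, a cyclin needed to multiply centrioles, ranged from 6.67 to 7.60 in control rats and from 7.72 to 8.52 in exposed rats at D0, without overlap. It was over-expressed by 0.94 (adjusted p = 0.000735 in limma), and by 0.93 at D3 (adjusted p = 0.00119). Plk4, the kinase that starts centriole duplication in cycling cells too, was over-expressed by 0.88 at D0 (adjusted p = 8.27e-05), with 6.83 to 7.63 in control rats and 7.74 to 8.40 in exposed rats. Its control level differed between times as well, by 0.77 between D3 and D0.

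Ccdc67, now named Deup1, a scaffold of the deuterosome on which ciliated cells grow centrioles, was over-expressed by 0.70 at D0 (adjusted p = 0.000904 in limma), with 6.53 to 6.96 in control rats and 7.34 to 7.74 in exposed rats. At D3 the change of Ccdc67 was 0.45 (adjusted p = 0.0486 in limma), under 1.5-fold, and that of Plk4 was 0.34 (adjusted p = 0.202). At D28 the changes of Ccno, Plk4 and Ccdc67 were 0.05, -0.01 and 0.18, none past the adjusted p. With the slide as a block all 4 DEG calls of these genes held, and none was lost with any 1 array of that day left out.

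Of 16 intraflagellar transport genes tested, Ttc21b alone was a DEG, where 4.27% of all genes were at D0 and 3.48% at D3. Ttc21b was over-expressed at D0 by 0.59 (adjusted p = 0.00575 in limma) and at D3 by 0.81 (adjusted p = 0.000195). The call at D0 was lost in 5 of 10 fits with 1 array left out. At D3 exposed rats ranged from 7.48 to 9.03, and without replicate 5 of the exposed rats the change was 0.53 and no longer a DEG.

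Ciliated epithelium markers (Cdhr3 and Lrriq1 of the 12 listed were not tested) had no DEG among 10 at any time and median changes of 0.13, -0.02, -0.08, 0.14 and 0.0094. Their mean level at D0 ran from 0.03 to 0.16 in control rats and from 0.09 to 0.26 in exposed rats. Of 12 secretory airway markers tested, Bpifb1 was over-expressed by 2.62 at D0 while Cyp2a3 (-1.55) and Cyp2f4 (-0.73) were under-expressed (adjusted p at most 8.97e-07 in limma). Basal cell markers held no DEG among 5, nor did markers of alveolar type 2 cells or cardiac muscle among 8 each at any time. The mean level of the alveolar type 2 markers at D0 nevertheless ran from -0.169 to -0.0765 in control rats and from 0.0811 to 0.174 in exposed rats, with no overlap. At D0 Chi3l1 of macrophages (1.92) and, of 8 neutrophil markers tested, S100a8 (1.37) and S100a9 (1.69) were over-expressed. Cldn5 (-0.87) and Tek (-0.59), of 6 endothelium markers tested, and Cnn1 of smooth muscle (-0.71) were under-expressed. For all of these the adjusted p was at most 0.000440 in limma, and no other marker of these lists was a DEG at D0. Of all genes, 4.27% were DEGs at D0. Mean marker levels at D0 did not overlap either for endothelium (0.153 to 0.313 in control rats and -0.394 to -0.170 in exposed rats), alveolar type 1 cells (0.0572 to 0.421 and -0.323 to -0.0907), smooth muscle and cartilage (0.0197 to 0.403 and -0.430 to -0.0258) or macrophages (-0.271 to -0.112 and -0.0393 to 0.513). Mean levels of neutrophil markers at D0 overlapped (-0.306 to 0.184 in control rats and 0.0991 to 0.616 in exposed rats). Krt5 and Ngfr (basal), Nppa (cardiac) and Muc5ac, Tff2 and Reg3g (secretory) were not well above background on all 50 arrays. Nor were Rtkn2 (alveolar type 1) and Mpo, Ngp and Ltf (neutrophil). The part of these cell types in the changes of cilia genes was not tested.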

How the data were processed

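Total RNA (100 ng) from the accessory lobe of each rat was labelled with Cy3 and hybridised to 1-colour Agilent arrays of 62976 spots. The authors deposited scanner files whose processed signal is an intensity after the background correction of Agilent Feature Extraction, version 11.0.1.1 per the file headers. A table of normalised intensity values was deposited as well and served as an alternative. The names of 84 gene spots were altered in 22 files and were read from the intact files.

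Probes were kept when above the 95th percentile of 308 negative control spots on at least 5 arrays (29549 probes). Processed signals were taken as log2 and quantile normalized in R 4.3.3. The probe of highest mean signal stood for each gene (25208 genes). Group means of 10 groups were fitted with limma 3.58.1 on all 50 arrays, so that the groups shared 1 estimate of the spread. P-values are two-sided and Benjamini-Hochberg adjusted over all genes within a comparison, and a DEG needed an adjusted p under 0.05 and 1.5-fold. The number of arrays limits the precision.

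The labels give 10 groups, and each array is from another rat. The labels state no pairing of rats by replicate number, and none was used. Of 25 pairs of the same number, 8 correlated over 0.1, which cannot exclude a pairing. The fit was tested on simulated data.

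Members, gene lists and tests were chosen with earlier results of these data known. Signals in every rat were given for Foxj1, for members that were DEGs in exposed against control rats, and for the 3 members of lowest unadjusted p at each time. Of the other lists up to 5 DEGs each were named, and the 10 genes outside the list most like the member mean. Alternatives were another scaling, normexp background correction (offset 50), no or a stricter filter on dim probes, the mean of all probes of a gene, the slide or the replicate number as a block, single slides, the arrays of 1 day, each array left out, the deposited normalised values and no fold limit. Correlations with slide means removed or without the 2 farthest rats, single probes, the slide block with no fold limit, and the leave-one-out fits of the Tekt2 differences and of genes in other lists were chosen after seeing the data.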

Additional observations from a re-analysis of the deposited data

Results flagged for a closer look

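Over 80 groups of 5 rats, for the members named by rat and the member mean, 6 held a rat far from the other 4, where chance gives about 1 in 20. Spag16 was at 7.12 in replicate 4 of the control rats at D0, with the nearest rat at 6.65, and at 6.69 in replicate 3 of the exposed rats at D3, with the nearest at 6.16. Tppp3 was at 16.84 in replicate 3 of the exposed rats at D90, with the nearest at 16.58.

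The mean level of the 35 members was 0.354 in that same rat, with the nearest rat of its group at -0.0116. It was 0.167 in replicate 5 of the exposed rats at D0, with the nearest at 0.0762, and -0.217 in replicate 4 of the control rats at D90, with the nearest at -0.0395.

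The change of Tekt2 after exposure differed between times by the test of the difference itself, by -0.61 at D90 and by -0.68 at D180 relative to D0 (adjusted p = 5.99e-05 and 1.03e-05 in limma). Of the 5 rats per group, all exposed rats were above all control rats at D0 and not at D90 or D180. The part of the low control level at D0, 11.22 against 11.68 to 11.78 at the other times, was not tested apart from the exposed rats.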

How the results depend on the processing

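Of 280 recomputed counts and medians 264 counted as the same, and of 426 values for named members 404 did. A count had to stay equal or within 1.5-fold, and a median to move by less than the SD between rats of a group. A named value had to keep its direction and, outside single slides, its status as a DEG or not. For a member under 1.5-fold, losing the adjusted p did not count as a change. The D90 median of -0.012 without replicate 3 of the exposed rats thus counted as the same. With no fold limit the members past the adjusted p numbered 6 at D0, 3 at D3, 3 at D28 and 1 at D90. Of all genes, 13.5%, 10.4%, 3.88% and 1.05% passed in the same order. With the slide as a block as well, members numbered 12, 6, 5, 2 and 2 at D0, D3, D28, D90 and D180. The shares of all genes were then 28.1%, 19.6%, 12.4%, 4.35% and 4.11%, so the larger counts came with larger shares of all genes. With 1 array left out the count at D3 ranged from 0 to 1, and it was 0 without replicate 5 of the control rats. With normexp no member passed the difference between D90 and D0 (0), and with 75th percentile scaling or the slide as a block none (0) passed between control rats of D180 and D0. Within slide 4 the median change at D28 was -0.015, and within slide 7 it was 0.241 at D90 and -0.125 at D180.

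Foxj1 turned direction around a change near 0. At D0 it was -0.0198 with the slide as a block, -0.0653 within slide 2, -0.107 within slide 3 and -0.0356 to 0.0502 with 1 array left out. At D3 it was 0.0202 with the slide as a block, 0.0261, 0.0834 and 0.0592 within slides 1, 2 and 3, and -0.0750 to 0.0332 with 1 array left out. At D90 it was -0.0174 within slide 5, -0.0933 within slide 6 and -0.0623 to 0.0657 with 1 array left out. The cause was not tested.

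With the replicate number as a block the counts were 1 at D0 and D3 and 0 later, and Tekt2 kept 0.82 at D0 (adjusted p = 3.33e-11 in limma) and 0.63 at D3 (adjusted p = 3.85e-08). The block changed no call. Same-numbered pairs correlated at -0.34 to 0.45, and 6 control rats correlated best with their own number. The labels state no pairing, and the numbers were not read as pairs.

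Fitted on the 10 arrays of its own time, Tekt2 passed at D0 (adjusted p = 0.000388) and D3 (0.00501) but not at D28 (0.148), and Ropn1l at D0 (0.11), Spag16 at D3 (0.191) and Ccdc113 at D28 (0.288) did not pass.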
